A study of Mus musculus with 12 samples.

Results

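The gene for p53 (Trp53) and 9 genes that p53 is known to activate were followed in mouse embryonic stem cells (ESCs) that carry or lack the microRNA processing factor Dgcr8. With earlier results of these data known, the 10 genes were taken by name: Trp53, Mdm2, Cdkn1a, Ccng1, Zmat3, Sesn2, Trp53inp1, Phlda3, Triap1 and Ei24. They were 10 of the 51467 genes counted, and all 10 were among the 14033 genes that passed the filter on low counts. ESCs of the V6.5 line served as wild type (WT), and a single line of Dgcr8 knockout ESCs (Dgcr8 KO) served as the mutant, so that genotype and cell line cannot be told apart. Both lines were grown in serum medium with LIF and the 2 inhibitors known as 2i, and both received the uridine analogue 4-thiouridine (4sU) at 500 µM for 30 min. RNA labelled in that window (4sU libraries, nascent RNA) and RNA depleted of ribosomal RNA (total libraries, steady-state RNA) were sequenced. Each of the 4 groups had 3 replicates. Per the study's methods, extracted RNA was split between the 2 kinds of library, and the main fit took all 12 libraries as independent. Nothing in the labels says that the replicates were separate cultures, so p-values measure the spread between these samples, which may be technical.

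p53 is a transcription factor that binds a short element near its target genes after DNA damage and other stress. The protein is kept low by Mdm2, a ubiquitin ligase whose own gene is a p53 target, so that the pair form a feedback loop. Cdkn1a (p21) inhibits the kinases that drive cells into S phase, and ESCs are known for a short G1 phase and little Cdkn1a protein. Dgcr8 partners Drosha in cutting primary microRNA transcripts, and cells without it lack canonical microRNAs. The main microRNAs of mouse ESCs, the ESC-enriched cell cycle (ESCC) family, share the seed AAGUGC and are known to repress inhibitors of the G1 to S transition, Cdkn1a among them.

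The ESCC microRNAs are printed because the match to their seed is what the members' 3′ UTRs were searched for. Their levels were not measured in these libraries. Each mature sequence is from RefSeq (GRCm38.p6), 5′ to 3′, with bases 2 to 8, the seed, in capitals. The first 5 share 1 seed, and the last 3, of the miR-17 family, hold the same letters shifted by 1 base.
mmu-miR-302b-3p (chr3:127545275-127545297, plus strand): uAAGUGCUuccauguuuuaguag
mmu-miR-302d-3p (chr3:127545665-127545687, plus strand): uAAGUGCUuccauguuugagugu
mmu-miR-291a-3p (chr7:3218968-3218989, plus strand): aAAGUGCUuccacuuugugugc
mmu-miR-294-3p (chr7:3220691-3220712, plus strand): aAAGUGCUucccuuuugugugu
mmu-miR-295-3p (chr7:3220815-3220837, plus strand): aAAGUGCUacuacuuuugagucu
mmu-miR-17-5p (chr14:115043684-115043706, plus strand): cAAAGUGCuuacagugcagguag
mmu-miR-20a-5p (chr14:115044183-115044205, plus strand): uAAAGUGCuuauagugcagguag
mmu-miR-93-5p (chr5:138165574-138165596, minus strand): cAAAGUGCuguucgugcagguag

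The longest annotated 3′ UTR of each member (GENCODE M21, GRCm38) was searched on the transcript strand for GCACTT, the complement of the shared 6 bases. The match was present in 6 of the 10 members and in 34.0% of 11806 tested protein-coding genes. All 6 of these members also held AGCACTT, the match to the full ESCC seed, which 18% of the genes held. GCACTTT, the match to the miR-17 family seed, was in 4 members and 14.9% of genes. GCACTTA, whose last base lies opposite base 1 of the ESCC microRNAs, outside the seed, was in 1 member, Cdkn1a, and 8.35% of genes. The longer motifs contain the shorter one, so these counts overlap. Match frequency also moves with UTR length: among genes with a 3′ UTR within 20% of the 6692 bases of Zmat3, 85.4% held GCACTT, and among those near the 948 bases of Ei24, 24.9% did.

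The 9 matches are printed with their surroundings because the total and nascent values below are read beside them. Capitals mark the match, with an A just before it and an A or T just after it where present. Cdkn1a held 3, Ccng1 held 2, and Trp53inp1, Zmat3, Sesn2 and Ei24 held 1 each. Trp53, Mdm2, Phlda3 and Triap1 held none. A match is a description of letters and was not tested as a binding site.
Cdkn1a, UTR base 436 (chr17:29099816-29099844, plus strand): tcagacctgaatAGCACTTTggaaaaatg
Cdkn1a, UTR base 757 (chr17:29100138-29100164, plus strand): aggcatatctagGCACTTgccccacag
Cdkn1a, UTR base 1108 (chr17:29100488-29100516, plus strand): cgtgggtgtcaaAGCACTTAgtgggtctg
Ccng1, UTR base 310 (chr11:40750544-40750571, minus strand): agttactgaaatAGCACTTctttaaatt
Ccng1, UTR base 1461 (chr11:40749392-40749419, minus strand): catttcatgaatGCACTTTtaaggtatt
Trp53inp1, UTR base 4268 (chr4:11174214-11174242, plus strand): aatgaacagcacAGCACTTTgccaaaaaa
Zmat3, UTR base 2374 (chr3:32339096-32339123, minus strand): gtgggtttccgaAGCACTTggaagttcc
Sesn2, UTR base 1265 (chr4:132492436-132492464, minus strand): ccaccaccgacaAGCACTTTgcagagcaa
Ei24, UTR base 213 (chr9:36779880-36779907, minus strand): agctgtttttttAGCACTTgccagctcc

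Promoter windows (RefSeq, GRCm38.p6, 250 bases before to 50 after a start site) were found for 8 members, and were searched for the p53 response element decamer, which reads the same on both strands. The decamer was in 5 of the 9 windows of these 8 members (55.6%), against 8.36% of all 32851 windows. The windows of Phlda3, Sesn2 and Triap1 and a second window of Cdkn1a held none. A single decamer is only a part of the p53 response element. Many p53 elements lie farther from the start site, and a window without the decamer says nothing of p53 binding. The matches are printed, decamer in capitals, because the members other than Trp53 were taken as known p53 targets. Binding by p53 was not measured.
Trp53 (chr11:69580264-69580313, plus strand): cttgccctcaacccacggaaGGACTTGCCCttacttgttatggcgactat
Mdm2 (chr10:117710915-117710964, minus strand): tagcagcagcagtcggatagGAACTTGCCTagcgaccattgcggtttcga
Cdkn1a (chr17:29090886-29090957, plus strand): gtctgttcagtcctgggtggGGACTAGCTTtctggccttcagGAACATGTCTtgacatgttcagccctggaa
Ccng1 (chr11:40755442-40755491, minus strand): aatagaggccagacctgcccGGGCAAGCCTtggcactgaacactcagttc
Ei24 (chr9:36797315-36797364, minus strand): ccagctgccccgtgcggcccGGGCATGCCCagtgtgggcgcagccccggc

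Total counts were 4593914 to 6005526 per 4sU library and 6873708 to 9295245 per total library. Dgcr8 itself was at 92.5 to 111 CPM (counts scaled to library size) in WT total RNA and at 32.0 to 34.1 CPM in Dgcr8 KO total RNA, lower in all 3 KO libraries. All 8 ESC markers were detected, with summed levels of 5062 to 5168 CPM in WT total and 4996 to 5058 CPM in KO total libraries, and of 5462 to 5546 CPM in WT and 6177 to 6840 CPM in KO 4sU libraries. The sums hide single markers that moved in both directions in total RNA. On the log2 scale Klf4 (-0.40), Dppa5a (-0.28), Nanog (-0.18), Esrrb (-0.17) and Tfcp2l1 (-0.15) were lower in KO. Sox2 (0.32), Pou5f1 (0.26) and Zfp42 (0.15) were higher, and all 8 had an adjusted p under 0.05 (limma). Of 16 markers of other lineages, 5 passed the filter, and the list summed to 43.4 to 49.9 CPM in WT total and 51.4 to 56.4 CPM in KO total libraries. In 4sU libraries it summed to 92.0 to 93.0 CPM in WT and 123 CPM in all 3 KO libraries. Within the list Otx2 was higher in KO (0.78 in total and 1.04 in nascent RNA on the log2 scale) and Pou3f1 lower (-2.42 and -2.40). The part of both marker lists in the results was not tested. In bulk RNA, fewer cells with a transcript and less of it per cell cannot be told apart.

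The first question was which of the genes differed in steady-state RNA between the genotypes. Ei24, Cdkn1a and Sesn2 were higher in Dgcr8 KO total RNA, and Mdm2, Triap1, Phlda3, Zmat3 and Trp53inp1 were lower. Trp53 and Ccng1 did not pass the test. These 8 of 10 passed an adjusted p of 0.05 (limma with voom, Benjamini-Hochberg over all genes tested), where 63.9% of all genes tested did. The 3 higher members stand beside a background of 27.2% and the 5 lower members beside 36.7%. A change over 1 on the log2 scale in addition was met by 2 members, Ei24 and Mdm2, against 17.2% of genes. WT and KO libraries did not overlap for 8 members, against 68.8% of genes. The median log2 change of the members was -0.03, and that of all genes tested -0.09.

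The second question was whether the genes were transcribed at different rates, read from the 4sU libraries. Triap1 and Ei24 were higher in KO nascent RNA, and Mdm2, Ccng1 and Trp53inp1 were lower. These were 5 of 10 members, where 56.3% of genes passed. The 2 higher members stand beside 28.3% of genes and the 3 lower ones beside 28%. No member also changed by over 1 on the log2 scale in nascent RNA, which 14.8% of genes did. An unadjusted p under 0.05 was reached by 6 members in limma, and an adjusted one by 5 in edgeR. Groups did not overlap for 6 members, against 59% of genes. The median log2 change was -0.10, against -0.02 over all genes.

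The third comparison, the change in total RNA minus the change in nascent RNA on the log2 scale, is the study's measure of RNA stability and is an interaction term in the fit. It was higher in KO for Cdkn1a, Ccng1 and Ei24 and lower for Triap1, Phlda3 and Zmat3. These 6 of 10 members passed, where 16.1% of genes did. The 3 higher members stand beside 5.02% of genes and the 3 lower ones beside 11.1%. Only Triap1 among the members also changed by over 1 on the log2 scale, against 1.76% of genes. The ratios of total to 4sU signal did not overlap between genotypes for 9 members, against 33.4% of genes. By level per kilobase, the members lay at percentiles 60.8 (Zmat3) to 96.2 (Ccng1) of genes tested in WT total RNA. In WT nascent RNA they lay at percentiles 76.1 (Zmat3) to 98.6 (Cdkn1a). Shares among genes of like level were not taken. The member median was 0.10, and the median of all genes -0.09, a value that moved to -0.0026 with another scaling of the libraries.

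**Figure D1:**
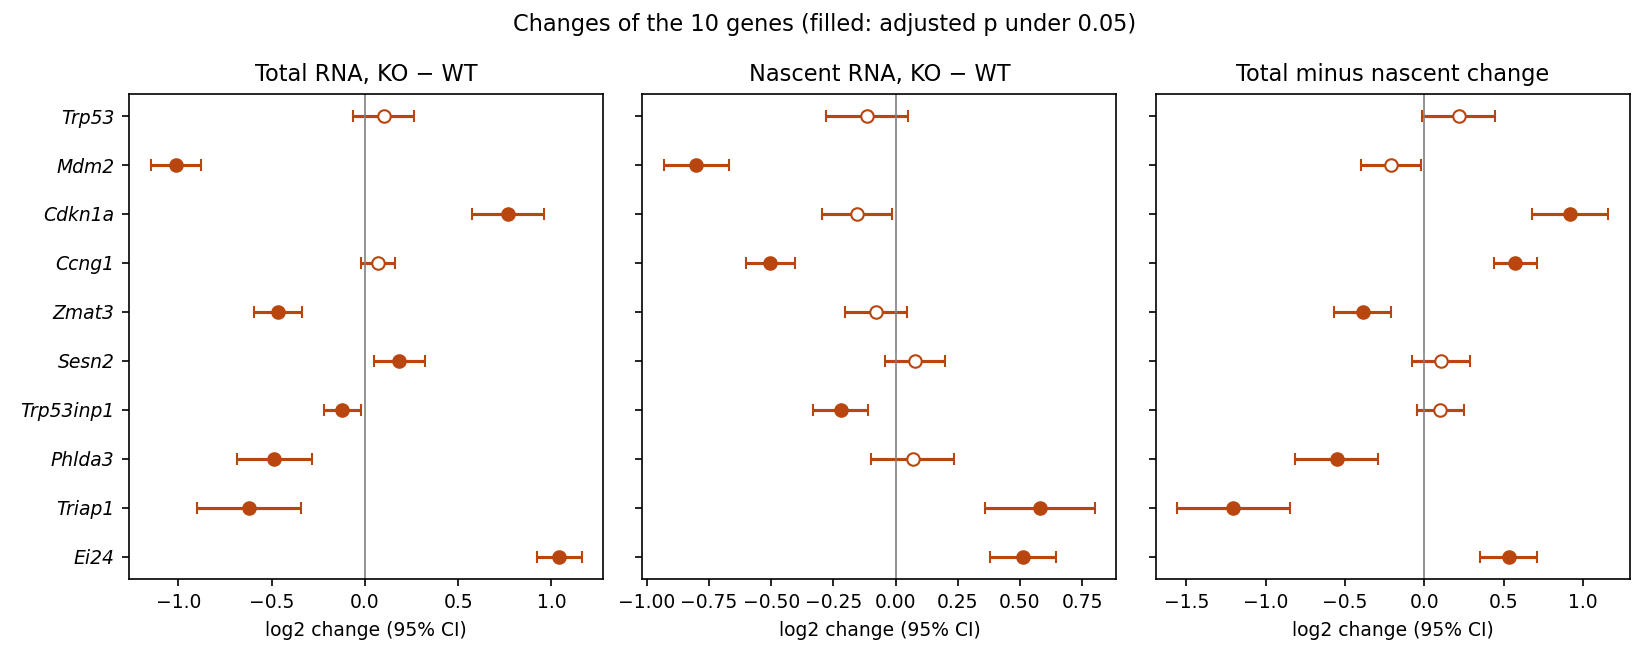
Log2 change (x axis, point with 95% confidence interval) of each of the 10 genes in total RNA, in nascent RNA and in the difference of these changes, with filled points for an adjusted p under 0.05. The 2 points farthest from 0 in the total panel are Mdm2 at -1.01 and Ei24 at 1.04, and Triap1 at -1.20 is farthest from 0 in the third.

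Trp53 (chr11:69580359-69591873, plus strand), which encodes the transcription factor itself, showed no difference that passed in any of the 3 comparisons. In WT total RNA it was at 90.7, 99.1 and 121 CPM, and in KO total RNA at 102, 117 and 116 CPM. In nascent RNA it was at 156, 141 and 170 CPM in WT and at 142, 148 and 141 CPM in KO. The groups overlapped on both levels. The log2 change was 0.10 ± 0.08 (SE) in total RNA with a 95% interval of -0.06 to 0.26 (adjusted p = 0.281), and -0.12 ± 0.08 in nascent RNA with an interval of -0.28 to 0.05 (adjusted p = 0.221). The change in total RNA passed when WT replicate 3, the highest of the WT total libraries, was left out (0.21, adjusted p = 0.0122). Of 4230 stretches of 50 bases in annotated Trp53 transcripts, 154 also occur in the pseudogene Trp53-ps, and reads from those would be dropped by unique mapping.

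Mdm2 (chr10:117688875-117710758, minus strand), the ligase that marks p53 for degradation, was lower in KO on both levels. Nascent Mdm2 was at 301, 270 and 312 CPM in WT and at 154, 173 and 181 CPM in KO. Total Mdm2 was at 183, 171 and 181 CPM in WT and at 89.1, 83.6 and 92.2 CPM in KO. All KO libraries lay below all WT libraries of the same kind. The KO level was 0.496 of WT in total RNA (log2 change -1.01 ± 0.07, adjusted p = 1.57e-14) and 0.574 of WT in nascent RNA (-0.80 ± 0.06, adjusted p = 2.93e-12). The difference of these changes, -0.21 ± 0.09, did not pass (adjusted p = 0.124). Mdm2 was the member with the lowest log2 change in both kinds of RNA. Its change in total RNA passed under all 15 alternatives, at -1.05 to -0.96, and was 1 or less in size under 7 of them, among them every other scaling and leaving out KO replicate 2 (-0.97).

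Cdkn1a (chr17:29090979-29100722, plus strand), the inhibitor of cyclin-dependent kinases with 3 matches to the shared seed letters in its 3′ UTR, was higher in KO total RNA. Its total RNA was at 62.4, 59.9 and 77.4 CPM in WT and at 107, 113 and 121 CPM in KO. Its nascent RNA was at 606, 530 and 707 CPM in WT and at 555, 559 and 535 CPM in KO. The total libraries did not overlap, whereas the KO nascent libraries lay within the WT range. Total Cdkn1a was 1.70-fold higher in KO (log2 change 0.77 ± 0.10, adjusted p = 2.31e-08), and the nascent change was -0.16 ± 0.07 (adjusted p = 0.0542). The stability measure was 1.89-fold higher (0.92 ± 0.12, adjusted p = 9.62e-07). The nascent change lay just outside the threshold and passed as a decrease under 6 of 15 alternatives, with values of -0.26 to -0.06 over all of them. Those ends came without WT replicate 2 (-0.26, adjusted p = 0.00108) and without WT replicate 3 (-0.06, adjusted p = 0.403). Of the 50-base stretches of Cdkn1a transcripts, 8.49% also occur, on either strand, in transcripts of other genes. AC167363.2 lies on the opposite strand over 273 exonic bases, and stretches there can be among these.

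Ccng1 (chr11:40748552-40755311, minus strand) encodes cyclin G1, which recruits a phosphatase to Mdm2, and held 2 matches. Nascent Ccng1 was at 468, 488 and 490 CPM in WT and at 336, 341 and 341 CPM in KO, and total Ccng1 at 464, 467 and 459 CPM in WT and at 499, 463 and 499 CPM in KO. Nascent RNA was lower in every KO library, and total RNA overlapped. The nascent level in KO was 0.705 of WT (-0.50 ± 0.05, adjusted p = 2.08e-10). The total change was 0.07 ± 0.04 with an interval of -0.02 to 0.16 (adjusted p = 0.161), and it passed as an increase under 4 of 15 alternatives, 3 of which change the scaling. The stability measure was 1.49-fold higher (0.58 ± 0.07, adjusted p = 1.20e-07).

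Ei24 (chr9:36779159-36797393, minus strand), a membrane protein of the endoplasmic reticulum linked to autophagy, held 1 match and was higher in KO on both levels. Nascent Ei24 was at 162, 137 and 174 CPM in WT and at 221, 223 and 231 CPM in KO. Total Ei24 was at 167, 161 and 170 CPM in WT and at 340, 335 and 352 CPM in KO. Neither pair of groups overlapped. The increase was 2.06-fold in total RNA (1.04 ± 0.06, adjusted p = 2.15e-16) and 1.42-fold in nascent RNA (0.51 ± 0.07, adjusted p = 6.78e-08). The increase in total RNA exceeded that in nascent RNA by 0.53 ± 0.09 (adjusted p = 4.68e-05). Gm26787 lies on the opposite strand over 324 exonic bases of Ei24, and the counts were made by strand.

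Triap1 (chr5:115341225-115343569, plus strand), a small mitochondrial protein that limits cell death after p53 activation, passed in opposite directions on the 2 levels. No other member did so in these fits, although Cdkn1a under 6 and Ccng1 under 4 of 15 alternatives passed as higher in total and lower in nascent RNA. Nascent Triap1 was at 27.3, 26.4 and 35.2 CPM in WT and at 45.0, 47.1 and 40.5 CPM in KO. Total Triap1 was at 16.4, 20.4 and 17.8 CPM in WT and at 11.7, 12.6 and 11.1 CPM in KO, from 77 to 167 counts per library. KO libraries lay above WT in nascent RNA and below WT in total RNA. The change was 0.58 ± 0.11 in nascent RNA (adjusted p = 3.10e-05), -0.62 ± 0.14 in total RNA (adjusted p = 1.82e-04) and -1.20 ± 0.17 in the stability measure (adjusted p = 7.22e-06). Triap1 held no match, and its stability measure lay at percentile 1.55 of all genes tested.

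Phlda3 (chr1:135766119-135769136, plus strand), which competes with the kinase Akt for membrane lipids, and Zmat3 (chr3:32334792-32365678, minus strand), an RNA-binding zinc finger protein, were lower in total RNA with no nascent change that passed. Total Phlda3 was at 94.9, 73.9 and 99.2 CPM in WT and at 58.0, 66.7 and 65.8 CPM in KO (-0.48 ± 0.10, adjusted p = 6.24e-05). Nascent Phlda3 was at 209, 184 and 247 CPM in WT and at 230, 222 and 217 CPM in KO (0.07 ± 0.08, adjusted p = 0.493). Its total libraries were apart and its nascent libraries overlapped. Total Zmat3 was at 107, 99.01 and 114 CPM in WT and at 75.5, 78.5 and 77.7 CPM in KO (-0.47 ± 0.06, adjusted p = 1.17e-07). Nascent Zmat3 was at 161, 162 and 165 CPM in WT and at 150, 160 and 152 CPM in KO (-0.08 ± 0.06, adjusted p = 0.267). The KO nascent Zmat3 values lay just below the WT values without passing. The stability measure fell by 0.55 ± 0.13 for Phlda3 (adjusted p = 0.00233) and by 0.39 ± 0.09 for Zmat3 (adjusted p = 0.00187). Zmat3 holds 1 match in the longest 3′ UTR of the members, and Phlda3 holds none.

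Sesn2 (chr4:132492032-132510501, minus strand), a leucine sensor that restrains mTORC1, and Trp53inp1 (chr4:11156431-11174379, plus strand), a cofactor of p53 in stress and autophagy, showed the smallest changes that passed. Total Sesn2 was at 131, 121 and 130 CPM in WT and at 147, 142 and 144 CPM in KO (1.137-fold higher, log2 change 0.19 ± 0.07, adjusted p = 0.0154). This increase did not pass without WT replicate 2 (0.14, adjusted p = 0.0677) or without KO replicate 1 (0.17, adjusted p = 0.0525). Nascent Sesn2 was at 337, 308 and 386 CPM in WT and at 367, 360 and 361 CPM in KO, where the groups overlapped and the change was 0.08 ± 0.06 (adjusted p = 0.258). Without WT replicate 3 the nascent increase passed (0.16, adjusted p = 0.0162). Trp53inp1 was at 566, 578 and 564 CPM in WT total RNA and at 514, 508 and 552 CPM in KO total RNA, and at 499, 486 and 514 CPM in WT and 392, 432 and 465 CPM in KO nascent RNA. The KO libraries of Trp53inp1 lay below the WT libraries on both levels. Its nascent change was -0.22 ± 0.05 (adjusted p = 8.12e-04). Its total change of -0.12 ± 0.05 (adjusted p = 0.0310) did not pass in edgeR (adjusted p = 0.0674) and was lost under 9 of 15 alternatives, leaving out WT replicate 2 (-0.12), KO replicate 1 (-0.10) or KO replicate 2 (-0.10) among them. Neither gene passed in the stability measure, at 0.11 ± 0.09 for Sesn2 (adjusted p = 0.472) and 0.10 ± 0.07 for Trp53inp1 (adjusted p = 0.395).

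**Figure D2:**
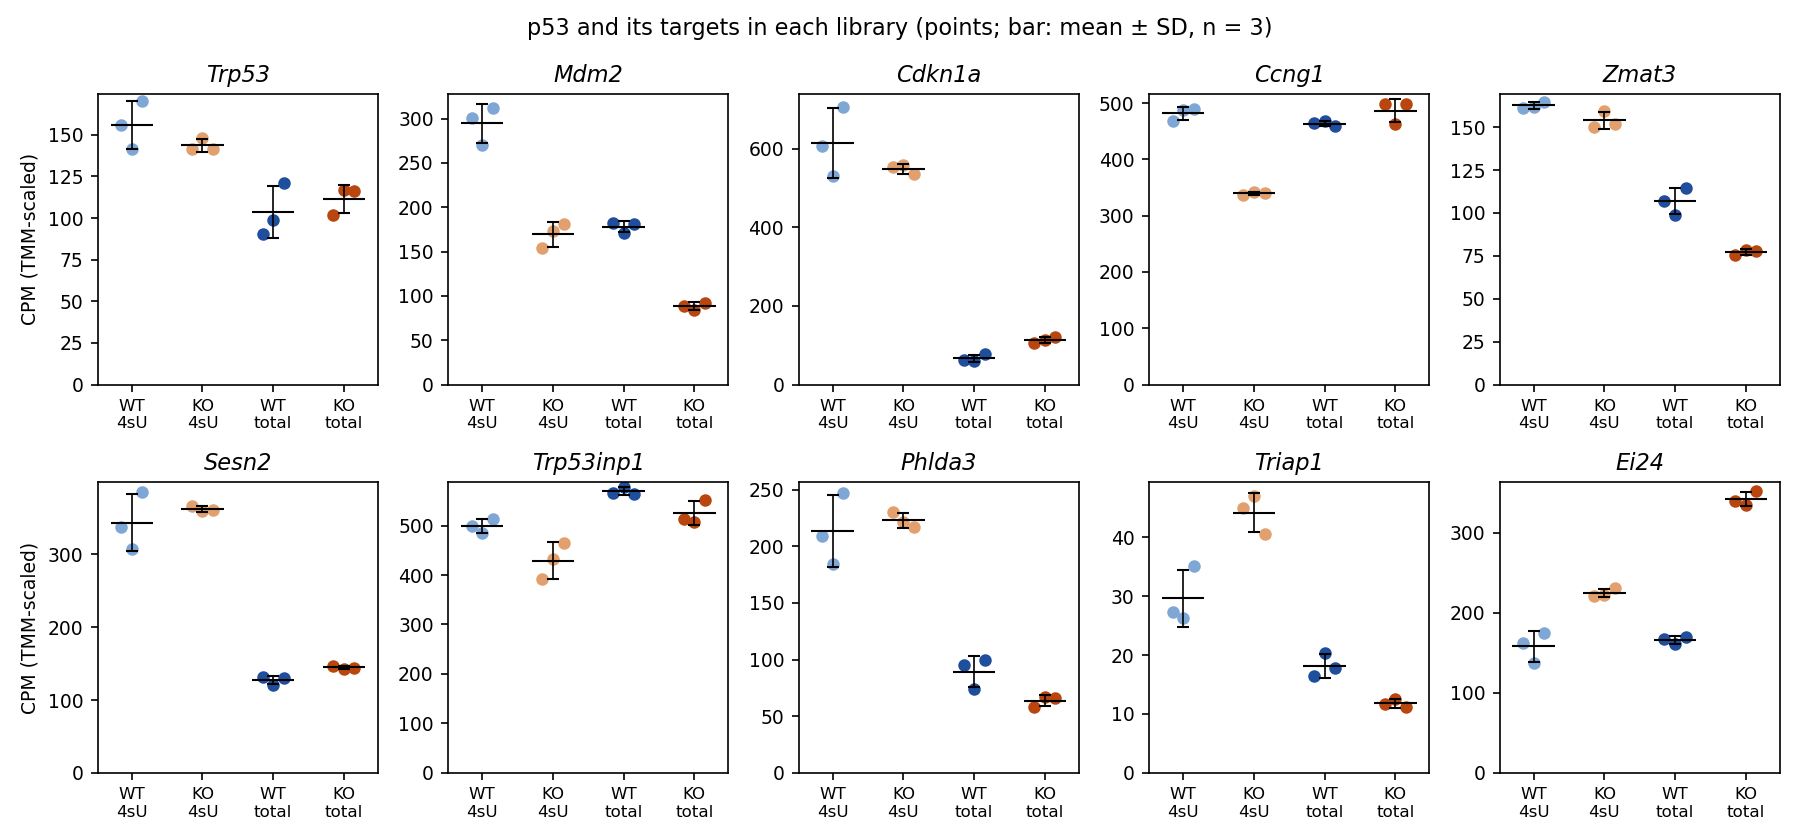
TMM-scaled CPM (y axis, from 0) of each of the 10 genes in the 12 libraries, grouped as WT 4sU, KO 4sU, WT total and KO total, with points for libraries and bars for mean ± SD (n = 3). Cdkn1a sits at 530 to 707 CPM in WT 4sU libraries against 59.9 to 77.4 CPM in WT total libraries, and Ei24 at 335 to 352 CPM in KO total libraries lies above its other 3 groups.

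Across the 10 genes, total and nascent changes were thus arranged in several ways. Mdm2 and Ei24 passed in 1 direction on both levels, as did Trp53inp1 with a smaller change. Cdkn1a, Zmat3 and Phlda3 passed in total RNA and not in nascent RNA, with an interaction that passed for each. Ccng1 passed in nascent RNA and not in total RNA, and its interaction passed too.

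**Figure D3:**
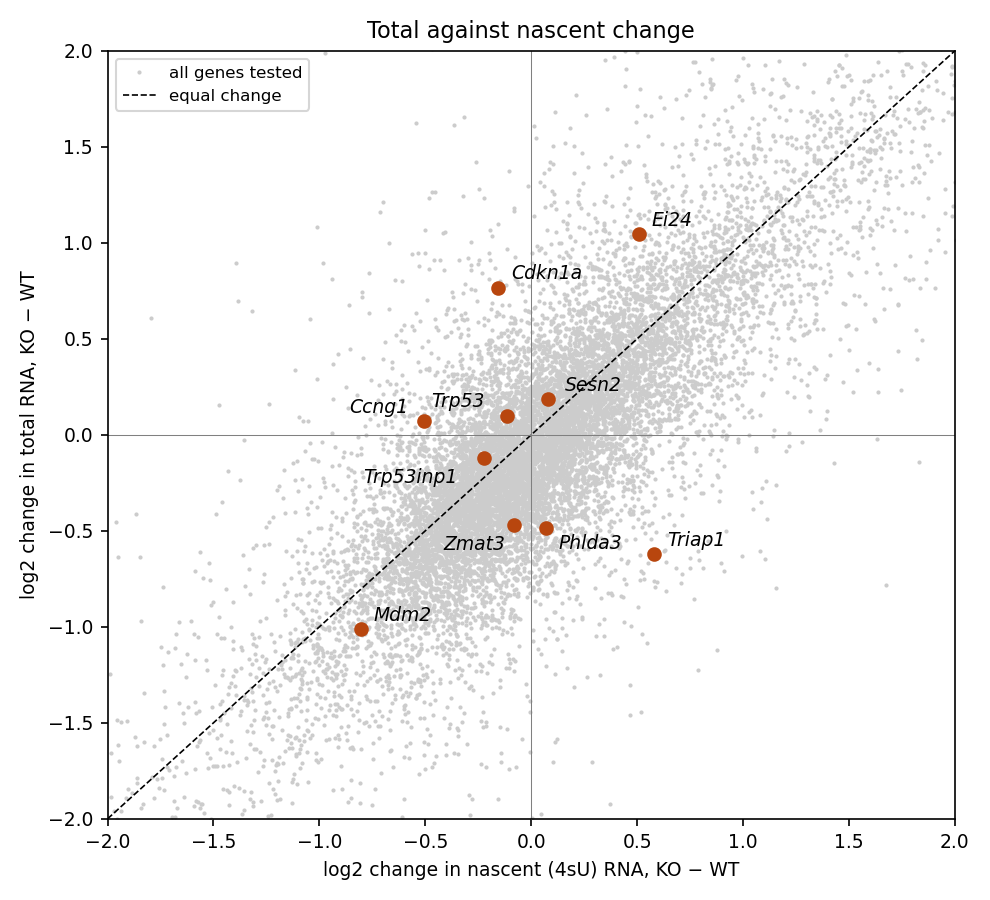
Log2 change in total RNA (y axis) against log2 change in nascent RNA (x axis), KO minus WT, for all genes tested (grey) and the 10 named genes, with the dashed line marking equal change and axes limited to 2 either way, which leaves 834 genes outside. Cdkn1a (0.77 total, -0.16 nascent), Ccng1 and Ei24 lie above the line, and Triap1 (-0.62 total, 0.58 nascent), Phlda3 and Zmat3 lie below it.

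Read beside the 3′ UTR letters, the 6 members with GCACTT had a median stability change of 0.32, with 3 higher, 1 lower and 2 that did not pass. The 4 members without it had a median of -0.38, with none higher, 2 lower and 2 that did not pass. Over all genes tested with a 3′ UTR, 11.1% of 4013 genes with the match were higher and 9.20% lower, with a median of -0.0088. Of 7793 genes without it, 2.19% were higher and 14.3% lower, with a median of -0.14. Zmat3 was the member with a match and a lower value, and the 3 higher members, Cdkn1a, Ccng1 and Ei24, each held a match. Triap1 and Phlda3 have 3′ UTRs of 811 and 727 bases, Cdkn1a one of 1334 bases, and Trp53inp1 and Zmat3 ones of 4420 and 6692 bases. UTR length was not accounted for in these counts. Whether the match had a part in the stability values was not tested.

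The level of each gene relative to its labelling was also described within each genotype. Differences between genotypes in this level come from the same libraries as the stability measure and are no separate evidence. The ratio of total to 4sU CPM was taken within each replicate number and set against the median gene of the same pair of libraries. For Cdkn1a in WT it was -3.30 ± 0.05 on the log2 scale (SD, n = 3), 9.84-fold below the median gene and at percentile 4.00 of all genes tested. In KO it was -2.28 ± 0.13, 4.85-fold below the median gene and at percentile 11.9. The other 9 members lay between -1.52 (Sesn2) and 0.10 (Trp53inp1) in WT, and between -1.90 (Triap1) and 0.61 (Ei24) in KO. Cdkn1a was the lowest member in both genotypes. Triap1 moved from -0.79 ± 0.30 in WT to -1.90 ± 0.05 in KO, and Ei24 from -0.01 ± 0.13 to 0.61 ± 0.02. The ratio depends on how the 2 kinds of library are scaled and is no half-life.

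**Figure D4:**
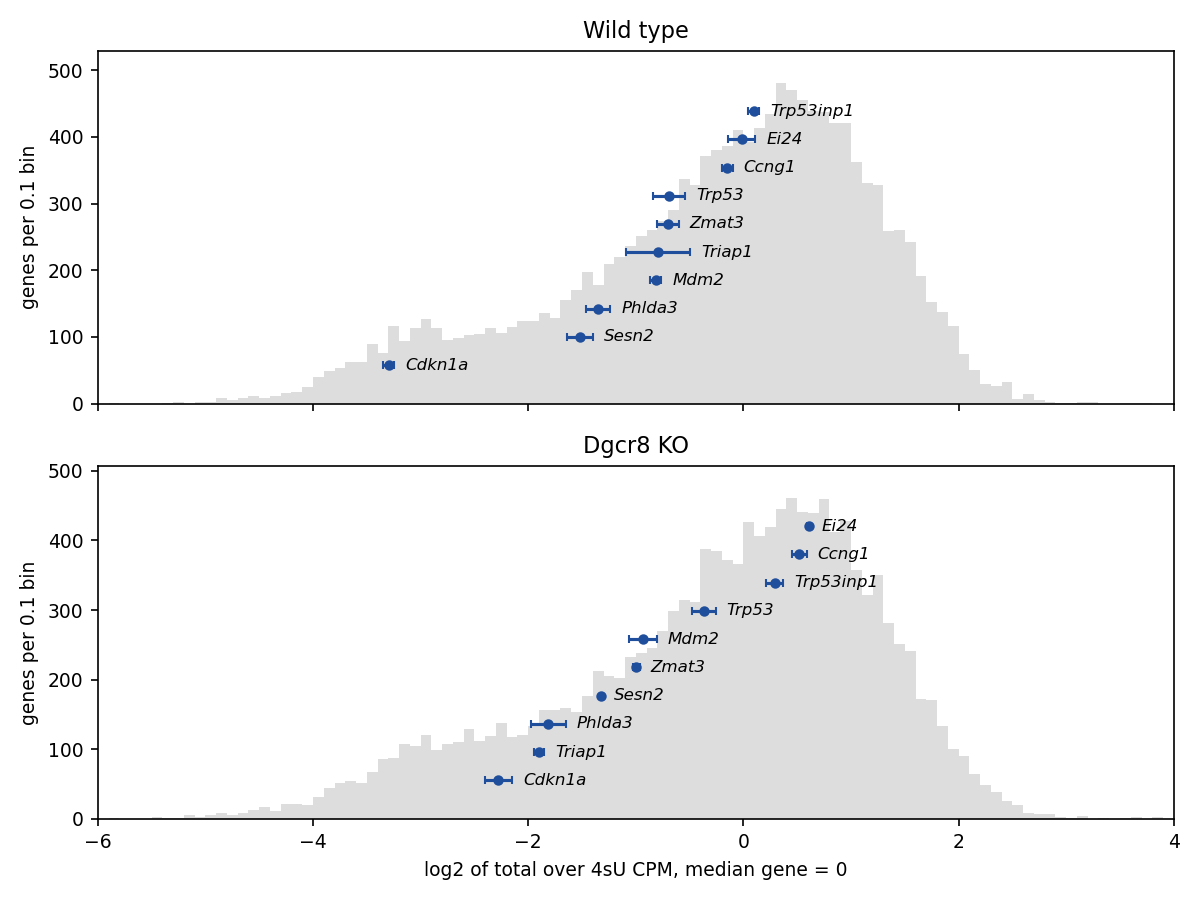
Distribution of the log2 ratio of total to 4sU CPM over all genes tested (grey bars, genes per bin of 0.1, median gene at 0) in WT and Dgcr8 KO, with the mean ± SD (n = 3) of each named gene at a height set for legibility only. Cdkn1a lies at -3.30 in WT and -2.28 in KO, left of the other 9 genes in both panels, and 10 and 9 genes fall outside the axis.

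Per kilobase, the order of the members differed between nascent and total RNA. In WT nascent RNA, Cdkn1a had the highest level, 276 ± 39.9 RPKM (CPM divided by the gene's length in kilobases), above Phlda3 at 149 ± 22.0 and Ccng1 at 137 ± 3.38, whose ranges overlapped. Sesn2, Mdm2, Trp53inp1 and Trp53 followed at 98.9 to 83.4 RPKM with overlap between each pair of neighbours, then Ei24 at 65.0, Triap1 at 27.2 and Zmat3 at 20.9, each apart from the next. In WT total RNA, Ccng1 (132 ± 1.24 RPKM) and Trp53inp1 (105 ± 1.41) led. Ei24, Phlda3, Mdm2 and Trp53 followed at 68.4 to 55.5 RPKM with neighbours overlapping, and then came Sesn2 at 36.7, Cdkn1a at 29.9 ± 4.25, Triap1 at 16.7 and Zmat3 at 13.7. Cdkn1a was therefore first of 10 in nascent and 8th of 10 in total RNA. In KO total RNA, Ei24 (141 ± 3.73 RPKM) and Ccng1 (139 ± 5.91) overlapped at the top, Cdkn1a was 5th at 51.0 ± 3.10, and Mdm2 was 8th at 28.1 ± 1.39. In KO nascent RNA, Cdkn1a (247 ± 5.75 RPKM) and Phlda3 (155 ± 4.55) led again, and Mdm2 was 8th at 53.8 ± 4.49. Trp53 itself stayed in a narrow range, at 83.4 and 76.9 RPKM in WT and KO nascent RNA and at 55.5 and 59.7 RPKM in WT and KO total RNA.

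The WT 4sU libraries differed among themselves in a way that touched the whole group. WT replicate 3 held the highest value of all 10 members, and WT replicate 2 the lowest of 8, where replicate 3 was the highest library for 35.9% of all genes and replicate 2 the lowest for 34.6%. Scaling by library size alone gave the same member counts for these WT 4sU libraries. In the WT total libraries, replicate 3 was highest for 5 members and replicate 2 lowest for 6. In the KO 4sU libraries, the highest library was replicate 1 for 2 members, replicate 2 for 5 and replicate 3 for 3, and with library size scaling 1, 4 and 5. This pattern was noticed after the values were seen. Without these WT replicates the nascent calls of Cdkn1a and Sesn2 changed, with the values given above.

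Other genes of the pathway were grouped as regulators of p53, further arrest targets, further death targets, and targets in repair and metabolism, 67 genes of which 63 passed the filter. In total RNA, 15 were higher in KO and 29 lower (44 of 63, 69.8%, beside 63.9% of all genes). In nascent RNA, 16 were higher and 22 lower (38 of 63, 60.3%, beside 56.3%). In the stability measure, 4 were higher and 10 lower (14 of 63, 22.2%, beside 16.1%). The lists moved in both directions, and they too were chosen with earlier results of these data known. Dram1, Fas, Rprm and Trp63 were not tested and reached at most 17 counts in a library.

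Among 22 tested regulators of p53, 3 were higher and 11 lower in total RNA, with a median log2 change of -0.18, and 1 was higher and 8 lower in nascent RNA. Those passing were 63.6% in total and 40.9% in nascent RNA, beside 63.9% and 56.3% of all genes. Mdm4, the partner of Mdm2 that binds the activation domain of p53, rose in KO total RNA from 377 ± 9.27 to 436 ± 12.2 CPM (0.21 ± 0.05, adjusted p = 5.41e-04), in contrast to Mdm2. Its nascent change was -0.13 ± 0.06 (adjusted p = 0.0692) and its stability change 0.34 ± 0.08 (adjusted p = 0.00254). Cdkn2a, whose Arf product inhibits Mdm2, fell in total RNA from 20.2 ± 0.913 to 14.8 ± 1.33 CPM (-0.45 ± 0.11, adjusted p = 8.79e-04), with a nascent change of -0.17 ± 0.19 (adjusted p = 0.445). Counts do not separate Arf from the other product of that gene. Trp73, a relative of p53, was lower in total RNA (-1.42 ± 0.30, adjusted p = 1.31e-04) and in nascent RNA (-1.13 ± 0.26, adjusted p = 3.45e-04), at a level of 1.84 to 9.07 CPM in the group means.

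Of 11 further arrest targets tested, all passed in nascent RNA, 7 higher and 4 lower, and in total RNA 4 were higher and 4 lower. These are 100% and 72.7% of the list, beside 56.3% and 63.9% of all genes. Gadd45a, a stress sensor that binds PCNA and p21, rose 2.60-fold in nascent RNA (34.3 ± 1.33 to 89.7 ± 5.93 CPM, adjusted p = 4.12e-15) and 2.09-fold in total RNA (7.82 ± 0.419 to 16.4 ± 0.334 CPM, adjusted p = 6.07e-08). Ccng2, the relative of Ccng1, fell to 0.351 of WT in nascent RNA (30.8 ± 2.05 to 11.1 ± 3.37 CPM, adjusted p = 1.43e-09) and to 0.374 of WT in total RNA (adjusted p = 8.71e-07). Sfn (14-3-3 sigma), which holds Cdc2 in the cytoplasm, was higher in nascent RNA (1.30 ± 0.21, adjusted p = 2.68e-06) with a total change of 0.26 ± 0.15 (adjusted p = 0.147). Its stability measure fell by 1.05 ± 0.26 (adjusted p = 0.00422), at group means of 6.09 to 15.3 CPM. In the stability measure 3 of the 11 passed, all 3 of them lower, beside 16.1% of all genes that passed and 11.1% that were lower.

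Of 12 further death targets tested, 3 were higher and 7 lower in total RNA, and 4 were higher and 5 lower in nascent RNA. These are 83.3% and 75% of the list, beside 63.9% and 56.3% of all genes. Pmaip1 (Noxa), a BH3-only activator of apoptosis, was at 42.2, 58.8 and 49.3 CPM in WT total RNA and at 213, 238 and 221 CPM in KO total RNA. Its nascent RNA was at 103, 101 and 113 CPM in WT and at 557, 561 and 509 CPM in KO. Every KO library lay above every WT library, and the increase was 4.46-fold in total (adjusted p = 9.68e-21) and 5.13-fold in nascent RNA (adjusted p = 2.01e-22), with a stability change of -0.20 ± 0.11 (adjusted p = 0.226). Perp, a membrane protein of desmosomes and of p53-dependent death, rose 4.23-fold in total RNA (9.27 ± 0.293 to 39.3 ± 1.496 CPM, adjusted p = 3.33e-16) and 4.38-fold in nascent RNA (adjusted p = 7.28e-12).

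Bbc3 (Puma), the other BH3-only target of p53 in the list, was at 28.1, 24.0 and 32.2 CPM in WT total RNA and at 16.3, 17.1 and 16.02 CPM in KO total RNA. In nascent RNA it was at 43.4, 32.8 and 48.2 CPM in WT and at 70.0, 55.9 and 61.1 CPM in KO. It was thus lower in total RNA (-0.76 ± 0.14, adjusted p = 1.10e-05), higher in nascent RNA (0.58 ± 0.11, adjusted p = 4.29e-05) and lower in the stability measure (-1.34 ± 0.17, adjusted p = 1.30e-06), as Triap1 was. Siva1, a death-domain protein, fell in total RNA from 52.8 ± 4.68 to 12.9 ± 1.21 CPM (-2.01 ± 0.11, adjusted p = 1.25e-16), in nascent RNA by 0.75 ± 0.14 (adjusted p = 4.01e-05) and in the stability measure by 1.26 ± 0.18 (adjusted p = 5.82e-06). Apaf1, the scaffold of the apoptosome, which was chosen after its values were seen, rose in total RNA (0.33 ± 0.06, adjusted p = 5.51e-06) and in nascent RNA (0.31 ± 0.07, adjusted p = 5.48e-04). Trp53i11 fell from 13.7 ± 2.24 to 2.52 ± 0.879 CPM in total RNA (-2.43 ± 0.25, adjusted p = 3.26e-10) and by 1.72 ± 0.31 in nascent RNA (adjusted p = 1.82e-05). Bax, the pore-forming effector, was lower in total RNA at 0.830 of WT (adjusted p = 0.00304), with a nascent change of -0.14 ± 0.10 (adjusted p = 0.237). In the stability measure 4 of the 12 passed, all 4 of them lower, beside 16.1% of all genes that passed and 11.1% that were lower.

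Of 18 targets in repair and metabolism, 5 were higher and 7 lower in total RNA, 4 higher and 5 lower in nascent RNA, and 3 higher and 2 lower in the stability measure. Those passing were 66.7%, 50% and 27.8%, beside 63.9%, 56.3% and 16.1% of all genes. Rrm2b, the p53-induced subunit of ribonucleotide reductase, rose 3.14-fold in total RNA (22.8 ± 2.499 to 71.3 ± 4.76 CPM, adjusted p = 1.84e-15) and 2.06-fold in nascent RNA (adjusted p = 1.80e-07), and its stability measure rose by 0.60 ± 0.17 (adjusted p = 0.0136). Ephx1, an epoxide hydrolase, rose 3.49-fold in nascent RNA (8.60 ± 2.91 to 29.5 ± 1.43 CPM, adjusted p = 1.07e-10) and 2.63-fold in total RNA (adjusted p = 2.56e-13).

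**Figure D5:**
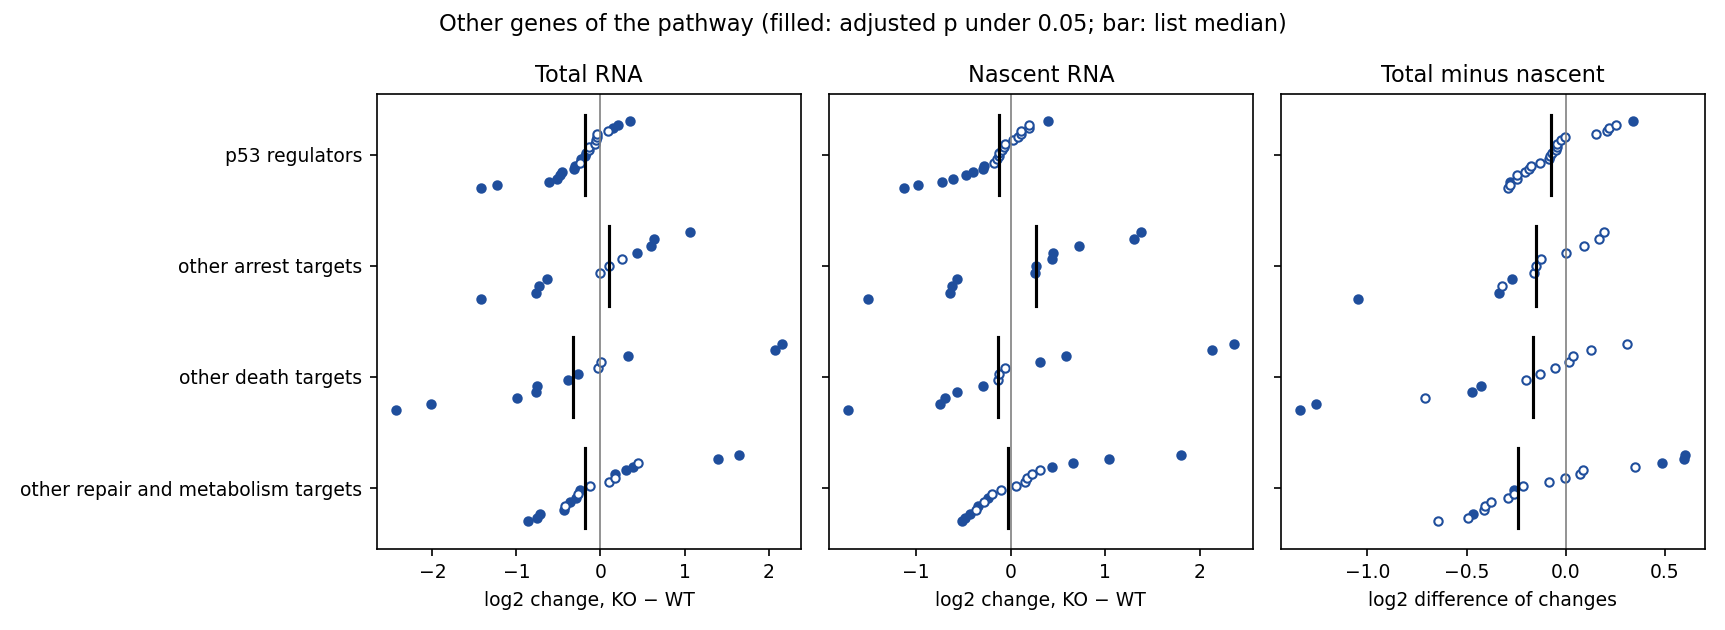
Log2 change (x axis) of each of the 63 tested genes of 4 other lists in total RNA, nascent RNA and the difference of these changes, 1 point a gene, filled for an adjusted p under 0.05, with a bar at each list's median. In total RNA points reach from -2.43 (Trp53i11) to 2.16 (Pmaip1) within the death targets, and the list medians lie between -0.33 and 0.10.

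The genes whose log2 CPM followed Trp53 most closely over the 12 libraries were Scamp3, Gm17655 and Zfp503, with Pearson r of 0.969, 0.967 and 0.958. Those closest to Cdkn1a were Plagl2, Zfp280b and E030037K01Rik, with r of 0.997, 0.996 and 0.995. The 12 libraries are of 2 kinds, and the gap between 4sU and total libraries makes up most of each pattern: Plagl2 was at 126 CPM in WT nascent and 12.2 CPM in WT total RNA. Total Plagl2 stood at 21.8 ± 1.096 CPM in KO against 12.2 ± 1.65 CPM in WT. Zfp503 and E030037K01Rik had under 10 counts in every total library.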

How the data were processed

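The 12 libraries were grouped by genotype and library type by their titles. Raw counts per gene, in whole numbers, were deposited. Per the file headers, the labels and the study's methods, the authors trimmed reads with cutadapt 1.14, mapped them uniquely with STAR 2.5.3a to mm10, and counted them by strand with featureCounts 1.5.3 against GENCODE M14. Gene identifiers were matched to GENCODE M21 symbols (51274 of 51559 rows matched). The rows include 92 ERCC spike-in controls, which held 1 count in all libraries together and name no gene. The members and all gene lists were chosen with earlier results of these data known.

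Genes with at least 3 CPM in at least 3 libraries were kept. Counts were scaled by TMM (edgeR 4.0.16), weighted by voom and fitted with limma 3.58.1 (R 4.3.3) over all 12 libraries with a mean for each of 4 groups. Contrasts were KO minus WT in total RNA, KO minus WT in nascent RNA, and their difference. Passing means a Benjamini-Hochberg adjusted p under 0.05 over the 14033 genes tested, and the study's own call also needs over 1 on the log2 scale. RPKM was computed from the deposited gene lengths. Ratios of total to 4sU CPM used a prior count of 0.5. The fits were tested on simulated data. Alternatives were edgeR's quasi-likelihood test, DESeq2 1.42.0, other scalings and filters, blocks, and leaving out each replicate of a genotype with both its libraries.

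Named beyond the members were the 6 pathway genes with the largest passing change in total and in nascent RNA, 4 in stability, 5 genes named whatever their values (Mdm4, Cdkn2a, Bax, Bbc3 and Pmaip1), and the 3 genes most like Trp53 and Cdkn1a. The authors' replicate numbers did not pair the genotypes: the deviations of same-numbered WT and KO libraries from their group means had a mean correlation of 0.0015 in total and -0.0012 in 4sU libraries. For same-numbered total and 4sU libraries, which the ratios pair, that correlation was 0.053 in WT and 0.023 in KO. Counts are not collapsed to molecules, so the counting precision understates the error.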

Additional observations from a re-analysis of the deposited data

Results flagged for a closer look

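Among the members and the named pathway genes, the change between genotypes differed between total and nascent RNA for 11. The test was the interaction term of the limma fit, adjusted over all genes. Some of these pathway genes were named for a passing stability change, so 11 is no rate to set beside 16.1% of all genes. In the full lists, 6 of 10 members and 14 of 63 pathway genes passed. Dgcr8, which also passed (-1.09), and the ESC markers were left out of the count. On the log2 scale the total change exceeded the nascent one by 0.92 for Cdkn1a, 0.58 for Ccng1, 0.53 for Ei24, 0.60 for Rrm2b and 0.34 for Mdm4. It lay below the nascent one for Zmat3 (-0.39), Phlda3 (-0.55), Sfn (-1.05), Triap1 (-1.20), Siva1 (-1.26) and Bbc3 (-1.34). Triap1 and Bbc3 passed in opposite directions, higher in nascent RNA (0.58 for each) and lower in total RNA (-0.62 and -0.76). The ESC markers Klf4, Nanog and Esrrb did so too, with nascent changes of 0.15, 0.16 and 0.28, and the other ESC markers did not. Groups of 3 were not tested for outlying samples.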

How the results depend on the processing

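The 6 members that passed in the stability measure passed under each of the 15 alternatives that refit the data, in the same direction. Of 450 member values, 426 kept direction and side of the threshold, 11 lost it, 12 gained it and 1 reversed: the nascent change of Phlda3, at -0.031 without WT replicate 2. The losses were Trp53inp1 in total RNA (9) and Sesn2 in total RNA (2), and the gains Cdkn1a in nascent RNA (6), Ccng1 in total RNA (4), Sesn2 in nascent RNA (1) and Trp53 in total RNA (1). With a change over 1 on the log2 scale also required, 2, 0 and 1 of 10 members passed in total RNA, nascent RNA and stability. Of the 63 pathway genes 10, 9 and 3 did, beside 17.2%, 14.8% and 1.76% of all genes. With no filter beyond 1 count, 6 pathway genes passed in stability, where the main filter gave 14. The cause was not tested. With a replicate block, which the numbers do not justify here, 8, 6 and 6 members passed. Leaving out each replicate gave 6 to 9, 5 to 6 and 6 members, and 40 to 44, 33 to 39 and 10 to 13 pathway genes. The wild-type ratio of total to 4sU is set against the median of the genes kept, so a filter shifts it for all members alike: Ccng1 came to 0.035 and Ei24 to 0.17 with no filter, and Trp53inp1 to -0.17 with 3 CPM in all 12 libraries. Cdkn1a stayed between -3.57 and -3.11. Depth limits Triap1 most, at 77 to 247 counts per library.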
